A study of Mus musculus with 18 samples.

Results

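Alppl2 and Alpl are alkaline phosphatase genes of the mouse, and their RNA was followed here through 9 conditions of germline differentiation with and without TET proteins. They are 2 of the 25239 genes counted, and both passed the filter on low counts that left 16582 genes to test. Alppl2 was chosen by its level in day 6 TKO cells, which lay far above that in wild-type PGCLCs of the same day, so its values in both are given as a description, without a test. Alpl was taken as the second alkaline phosphatase gene and was tested in every comparison.

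The 18 libraries hold RNA-seq counts of E14Tg2a cells, a mouse embryonic stem cell line, with 2 libraries in each condition. Wild-type and TET TKO (TKO) cells were compared as EpiLCs (epiblast-like cells, day 0), and as PGCLC (primordial germ cell-like cell) aggregates grown in suspension without cytokines at day 2 and at day 6. TKO aggregates were also grown with cytokines to day 2 and day 6 and wild-type aggregates with cytokines to day 6, the cytokines being BMP4, BMP8a, SCF, LIF and EGF. In the TKO line the reading frames of Tet1, Tet2 and Tet3 were deleted with CRISPR/Cas9. The study's methods describe its differentiation assays with a single TKO clone, so that clone and genotype cannot be told apart in these counts. By flow cytometry, the study also reports PGCLCs without cytokines from a further TKO clone and from a triple knockout line of another laboratory. All cells had been kept in 2i/LIF medium before they were made into EpiLCs, a step that both genotypes share. The labels call every day 2 and day 6 sample aggregates, whereas a legend of the study describes sorting by SSEA1 and CD61 for wild-type cells with cytokines at day 6 and whole aggregates for the rest. By that legend, each comparison with the day 6 wild-type PGCLCs is also one of sorted with unsorted cells, and in such bulk samples fewer cells of a type and less RNA per cell cannot be told apart.

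Alkaline phosphatases sit on the outside of the cell, held by a glycosylphosphatidylinositol (GPI) anchor, and remove phosphate groups from substrates such as pyrophosphate, extracellular nucleotides and the phosphorylated form of vitamin B6. Alpl encodes the tissue-nonspecific enzyme, which bone needs for mineralisation and whose staining has long marked pluripotent stem cells and primordial germ cells. Alppl2 encodes the enzyme known in the mouse as embryonic alkaline phosphatase, while Alpi and Akp3 beside it encode enzymes of the intestine.

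Alppl2 (ENSMUSG00000026246) lies on the minus strand of chromosome 1 at chr1:87086694-87089928 of GRCm38, the build also named mm10, and its transcript of 11 exons has 2092 bases of exon. A noncoding gene on the opposite strand, Gm29371, overlaps it, and since the authors' counting did not use the strand, reads of the pair cannot be separated. Alpl (ENSMUSG00000028766) lies on the minus strand of chromosome 4 at chr4:137741733-137796384, with 12 exons and 2522 bases of exon in the GENCODE transcript matched to RefSeq. The 300 bases around an annotated start of Alppl2 and around both annotated starts of Alpl, from RefSeq on build GRCm38.p6, are shown because the TET proteins missing from the TKO cells act on methylated CpG, and the genes differ in how many CpG they have at their starts. Each sequence is of the minus strand, 5′ to 3′, with every CpG in capitals. The RefSeq gene record of Alppl2 reaches further upstream, to position 87095934, and that end is not shown, so the Alppl2 window is that of the start where the GENCODE gene also begins. The positions are chr1:87089879-87090178 for Alppl2, chr4:137796335-137796634 for the upstream start of Alpl and chr4:137766426-137766725 for its other start.
Alppl2: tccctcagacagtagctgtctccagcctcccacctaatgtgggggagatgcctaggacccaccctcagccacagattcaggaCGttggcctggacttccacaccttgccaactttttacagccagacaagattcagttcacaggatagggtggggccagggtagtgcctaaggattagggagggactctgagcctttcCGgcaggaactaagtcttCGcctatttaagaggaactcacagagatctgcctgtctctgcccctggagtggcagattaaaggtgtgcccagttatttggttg
Alpl upstream start: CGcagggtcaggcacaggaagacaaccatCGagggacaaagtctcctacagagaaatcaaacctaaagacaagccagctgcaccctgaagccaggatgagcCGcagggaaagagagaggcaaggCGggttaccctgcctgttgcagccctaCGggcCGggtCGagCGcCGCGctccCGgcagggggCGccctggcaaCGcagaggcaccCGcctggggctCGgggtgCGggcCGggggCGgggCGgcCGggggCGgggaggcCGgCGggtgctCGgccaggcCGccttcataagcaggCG
Alpl other start: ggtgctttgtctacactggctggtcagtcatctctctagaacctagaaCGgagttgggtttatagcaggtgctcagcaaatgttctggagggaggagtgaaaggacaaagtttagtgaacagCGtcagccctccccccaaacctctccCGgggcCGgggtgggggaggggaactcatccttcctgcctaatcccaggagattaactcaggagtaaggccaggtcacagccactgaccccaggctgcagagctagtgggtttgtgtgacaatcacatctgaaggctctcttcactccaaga

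The Alppl2 window holds 3 CpG, and 31.4% of 32851 RefSeq promoter windows of this length hold as few or fewer. The upstream window of Alpl holds 26 CpG, more than 83.1% of all windows, and its other window holds 4, against a median of 7 over all windows. Searched on both strands, the letters TATTTAA occur in the Alppl2 window with their first base 30 bases before that start and in neither Alpl window, and 4.51% of all windows hold them. The window of Akp3, a neighbour of Alppl2, also holds them, 31 bases before its start, and has 6 CpG. That of Alpi has 1 CpG and holds TATAAA, 33 bases before its start. TATAAA occurs in the second Alpl window, 192 bases before that start, and in 13.6% of all windows. AGGTCA occurs in the same window, 31 bases before the start, and in 16.3% of all windows, while ATTTGCAT was found in none of the windows of these genes and in 1.74% of all. These matches describe the letters alone. No methylation or binding was measured in the counts used here.

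Total counts ran from 11286050 to 41257861 per library, and the ribosomal locus Rn45s took 16.2 to 47.6% of them. Tet1, at 11500 and 12110 normalised counts in day 6 wild-type PGCLCs, was at 504 and 783 in day 6 TKO PGCLCs with cytokines (log2 fold change -4.20 ± 0.35 SE, edgeR adjusted p = 2.9e-06), where sequence outside the deleted reading frames can still be counted. Without cytokines, Tet1 passed no test between the genotypes at day 2 (log2 fold change -0.30, edgeR adjusted p = 0.491) or at day 6 (-0.12, edgeR adjusted p = 0.777), while Tet3 was lower in TKO cells at both days (-3.52, edgeR adjusted p = 1.74e-06, and -4.23, edgeR adjusted p = 7.45e-08). Tet2 differed by 0.61 at day 2 (edgeR adjusted p = 0.301) and was lower at day 6 (-1.78, edgeR adjusted p = 0.00303). All 8 germ cell markers checked, Prdm1, Prdm14, Tfap2c, Nanos3, Dnd1, Dppa3, Kit and Itgb3, were higher in day 6 wild-type PGCLCs than in wild-type cells kept without cytokines to day 6, where 29.6% of all genes were called higher and 28.6% lower. The pair of day 6 wild-type libraries without cytokines stood apart from each other, for example in the extra-embryonic endoderm list, which summed to 12.7 normalised counts in replicate 1 and 1333 in replicate 2. Ttr alone made this gap (668 ± 937, SD, n = 2), and Sox17, Gata4, Gata6 and Afp averaged 0 to 2.75 there.

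Alppl2 RNA was all but absent from wild-type cells and accumulated in TKO cells during PGCLC differentiation, above all with cytokines. No Alppl2 count was found in the 57932828 counts of the wild-type EpiLC libraries or in the 37629058 of the day 2 wild-type libraries, which allows levels of up to 1.24 and 1.30 normalised counts (3 counts over the pair). Day 6 wild-type cells without cytokines gave 6 counts and 0, and day 6 wild-type PGCLCs gave 1 and 4. Every wild-type level was thus at most 2.72 normalised counts, that is, counts divided by the size factor of the library.

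In TKO cells, the EpiLC libraries gave 0 and 3 counts of Alppl2, and the day 2 libraries without cytokines 4 and 3. With cytokines the day 2 libraries gave 25 and 16 counts, or 24.1 ± 5.99 normalised counts (SD, n = 2). At day 6 the libraries without cytokines gave 35 and 38 counts, or 42.8 ± 7.26 normalised counts (SD, n = 2). These 6 aggregate libraries all lay above the highest wild-type library, and the day 2 libraries without cytokines, at 3.88 ± 0.387 normalised counts (SD, n = 2), lay only just above it and above the TKO EpiLC libraries. The highest values were 175 and 390 counts in day 6 TKO PGCLCs with cytokines, or 371 ± 109 normalised counts (SD, n = 2). In order of level, day 6 with cytokines came first, then day 6 without, day 2 with and day 2 without, and no library of one of these 4 TKO conditions overlapped the next. TKO EpiLCs and the 4 wild-type conditions followed at 0 to 3.30 normalised counts, and each of these neighbours overlapped the next.

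**Figure D1:**
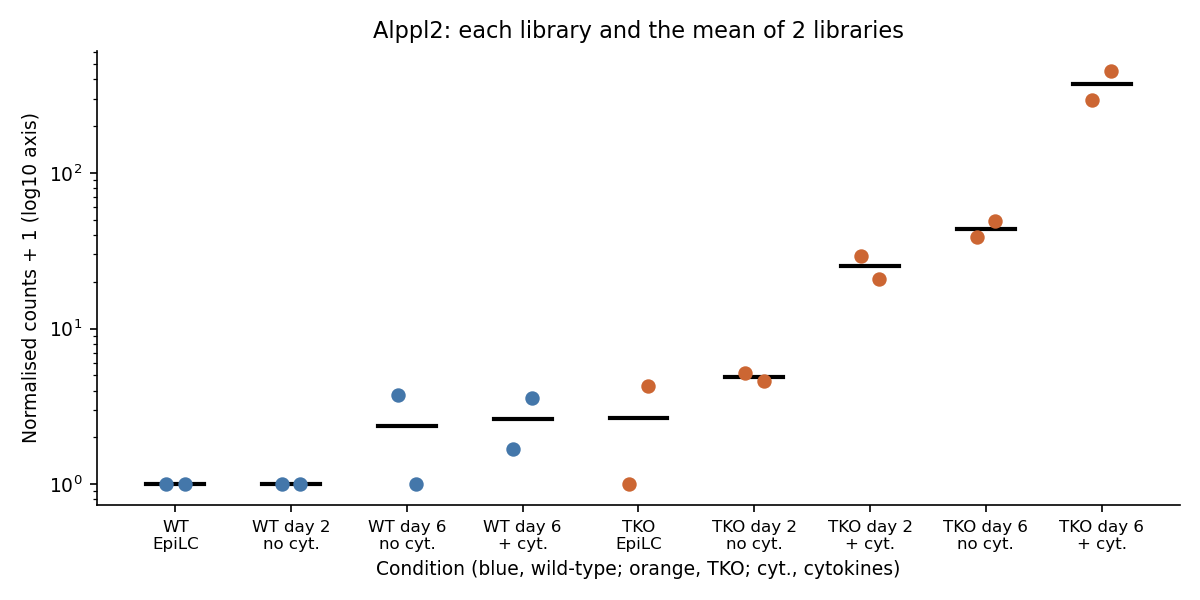
Alppl2 in the 9 conditions, as normalised counts plus 1 on a log10 axis, with 1 point for each library and a bar at the mean of 2 libraries (blue, wild-type; orange, TKO). All wild-type libraries lie at or below 2.72 normalised counts, and the TKO aggregates step up from 3.88 at day 2 without cytokines to 371 at day 6 with cytokines.

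As a description of the values by which it was chosen, Alppl2 ranked 9 of 16582 genes by log2 fold change, when TKO and wild-type PGCLCs of day 6 were compared, at 7.70 between Olfr1426 at 7.79 and Olfr815 at 7.64. In that comparison 11.3% of all genes were called higher. Summed over the libraries, its counts were 565 against 5, a ratio of 231 after scaling, with an exact 95% interval of 98.2 to 713 that covers counting error only. Against day 6 wild-type cells without cytokines, TKO cells without cytokines had 73 counts to 6, a ratio of 21.7 (9.50 to 61.1), in a comparison where 28.5% of all genes were called higher. All of these ratios rest on wild-type levels of a few counts.

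Within the TKO line the description is less bound to such low counts. Day 6 TKO cells had 9.08 times more Alppl2 with cytokines than without (exact 95% counting interval 7.11 to 11.8). From day 2 to day 6 the level was 15.9 times higher with cytokines (11.6 to 22.4) and 10.9 times higher without (5.02 to 28.0). By comparison, 2.56% of all genes were called higher and 3.05% lower with cytokines than without at day 6. From day 2 to day 6, 4.28% were called higher and 1.72% lower with cytokines, and 0.422% and 0.0543% without.

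Alppl2 could be tested in 7 comparisons that hold none of the libraries that chose it, but it passed the filter on low counts through TKO libraries of day 2 with cytokines and of day 6, which had 16 to 390 counts where no other library had more than 6. At day 2 without cytokines it was higher in TKO than in wild-type cells, at 7 counts against 0 (edgeR's quasi-likelihood test, Benjamini-Hochberg adjusted p = 0.0378, with 18% of all genes called higher). Taking the 0 as 3 counts over the group gives a 3.0-fold difference, a value that leaves out the counting error of the 7. When only these 4 libraries were fitted, Alppl2 did not pass the filter and was not tested. The call was lost when any one of the 4 libraries compared was left out, with adjusted p between 0.0845 and 0.156. Day 2 TKO cells with cytokines had more Alppl2 than TKO EpiLCs. This condition was among those that brought Alppl2 past the filter, so the adjusted p describes the libraries and gives no independent support. The counts were 41 against 3 (ratio 15.5, exact 95% counting interval 4.95 to 78.4, edgeR adjusted p = 0.0103, with 7.88% of all genes called higher and 6.39% lower). Without TKO EpiLC replicate 1 or TKO day 2 replicate 1 with cytokines, the adjusted p was 0.0652 and 0.0610.

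The cytokine comparison in day 2 TKO cells, which also holds libraries that brought Alppl2 past the filter, was close to the threshold. Its adjusted p values are likewise a description and give no independent support. Both Alppl2 values with cytokines, 28.3 and 19.9 normalised counts, lay above both without, 4.15 and 3.60, with a log2 fold change of 2.61 ± 0.76 (SE) and an edgeR adjusted p of 0.0662, where 2.05% of all genes were called higher and 2.47% lower. The same comparison passed the threshold with DESeq2 (adjusted p = 0.0122) and when only the libraries compared were fitted (edgeR adjusted p = 0.0150). The remaining 4 comparisons passed no test. TKO against wild-type EpiLCs gave an edgeR adjusted p of 0.226, and in TKO cells day 2 without cytokines against EpiLCs gave 0.458. In wild-type cells without cytokines, day 2 against EpiLCs gave an edgeR adjusted p of 1 and day 6 against day 2 gave 0.0975, with 6 counts in 1 library of day 6 and 0 in the other 3 libraries. That last comparison passed the threshold without wild-type day 6 replicate 2, the library with no count (edgeR adjusted p = 0.0407, with 20.5% of all genes called higher over all libraries). With 0 counts in both early wild-type conditions, the test of whether the change from EpiLCs to day 2 differed between genotypes had no wild-type level to stand on (edgeR adjusted p = 1).

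Alpl was counted in all 18 libraries and took another course. It was highest in day 6 wild-type PGCLCs, stood at an intermediate level in all 4 TKO aggregate conditions, and was low in EpiLCs of either genotype and in the wild-type aggregates that had no cytokines. Day 6 wild-type PGCLCs had 6763 and 6643 normalised counts (6703 ± 84.7, SD, n = 2). Wild-type EpiLCs had 710.1 and 597 (653.5 ± 79.9, SD, n = 2), and the wild-type aggregates at day 2 had 714.5 and 916 (815 ± 143, SD, n = 2). At day 6 the wild-type libraries without cytokines had 507 and 161 (334 ± 245, SD, n = 2), a wide spread in the pair that also differed in Ttr.

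TKO EpiLCs had 398 and 776 normalised counts of Alpl (587 ± 268, SD, n = 2) and overlapped the wild-type EpiLCs. The TKO aggregates without cytokines had 3185 and 2622 at day 2 (2903 ± 399, SD, n = 2), and 3419 and 2851 at day 6 (3135 ± 402, SD, n = 2). With cytokines they had 3382 and 2670 at day 2 (3026 ± 503, SD, n = 2), and 2921 and 3254 at day 6 (3087 ± 235, SD, n = 2). The 4 TKO aggregate conditions overlapped one another, and all 8 of their libraries lay between the day 6 wild-type PGCLCs and every other wild-type library. Among the lower conditions, day 2 wild-type cells did not overlap wild-type EpiLCs, the next in order, while wild-type EpiLCs, TKO EpiLCs and the cytokine-free wild-type cells of day 6 overlapped in turn.

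**Figure D2:**
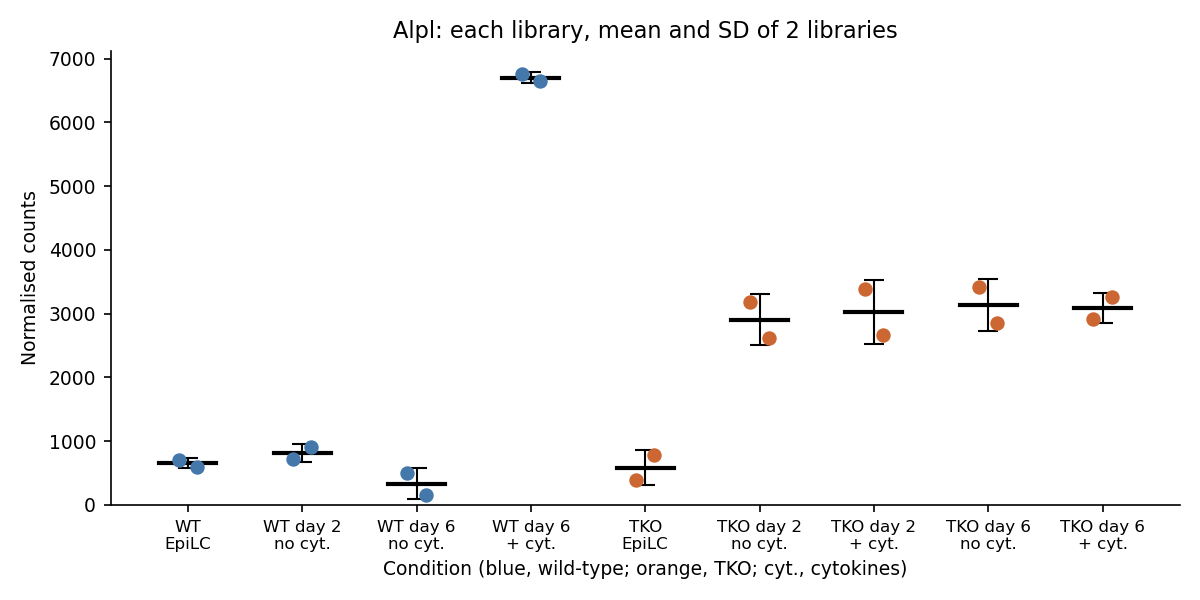
Alpl in the 9 conditions, as normalised counts on a linear axis from 0, with 1 point for each library, a bar at the mean of 2 libraries and whiskers for the SD (blue, wild-type; orange, TKO). Day 6 wild-type PGCLCs stand alone at a mean of 6703, the TKO aggregates lie between 2622 and 3419, and all other libraries are at or below 916.

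With and without cytokines, Alpl differed in wild-type cells and passed no test in TKO cells. By the legend, the wild-type cells with cytokines were also sorted and the TKO cells were not, so that in the wild-type comparison cytokines and sorting cannot be told apart. In day 6 wild-type cells Alpl was 20.3-fold higher with cytokines than without (log2 fold change 4.34 ± 0.43 SE, edgeR adjusted p = 5.54e-07), in a comparison where 29.6% of all genes were called higher. In TKO cells the log2 fold change with cytokines was 0.07 at day 2 (95% interval -0.72 to 0.86, edgeR adjusted p = 0.927) and -0.01 at day 6 (95% interval -0.80 to 0.78, edgeR adjusted p = 0.995). The difference between the genotypes in this contrast at day 6, which the sorting enters on the wild-type side, passed its own test, at -4.35 ± 0.55 (SE) on the log2 scale (edgeR adjusted p = 1.77e-05), as did 22% of all genes in this direction and 21% in the other. Over the fits without 1 library, the wild-type difference was between 3.78 and 5.42 and that between genotypes between -5.42 and -3.78.

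Without cytokines, the genotypes parted after the EpiLC stage. Alpl in TKO and wild-type EpiLCs differed by -0.12 on the log2 scale (95% interval -0.93 to 0.69, edgeR adjusted p = 0.889). At day 2 it was 3.48-fold higher in TKO cells (log2 fold change 1.80 ± 0.38 SE, edgeR adjusted p = 0.00236). At day 6 it was 9.36-fold higher (3.23 ± 0.41 SE, edgeR adjusted p = 9.79e-06), with values from 2.66 to 4.30 on the log2 scale as single libraries were left out. In these comparisons 7.57%, 18% and 28.5% of all genes were called higher in TKO cells, and 3.18%, 14.8% and 26.9% lower.

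From EpiLCs to day 2, Alpl rose 4.90-fold in TKO cells without cytokines (log2 fold change 2.29 ± 0.39 SE, edgeR adjusted p = 0.00144, 10.1% of all genes called higher and 8.52% lower) and 5.17-fold with them (2.37 ± 0.39 SE, edgeR adjusted p = 0.000970, 7.88% called higher). Over the same days its log2 fold change in wild-type cells that had no cytokines was 0.38 (95% interval -0.43 to 1.18, edgeR adjusted p = 0.471, 18.6% called higher). The change from EpiLCs to day 2 without cytokines was larger in TKO cells by 1.92 ± 0.54 (SE) on the log2 scale (edgeR adjusted p = 0.0296, 6.08% of all genes called in this direction and 6.19% in the other). That call was lost without any one of 7 of the 8 libraries in it, the exception being TKO EpiLC replicate 2, and the difference was then between 1.50 and 2.14.

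After day 2 Alpl passed no test of change in TKO cells. Between day 2 and day 6 the log2 fold change was 0.12 without cytokines (95% interval -0.67 to 0.91, edgeR adjusted p = 0.977) and 0.03 with them (95% interval -0.76 to 0.82, edgeR adjusted p = 0.981), over the same interval in which Alppl2 counts were 10.9 and 15.9 times higher. In wild-type cells without cytokines Alpl fell by 1.31 ± 0.38 (SE) on the log2 scale from day 2 to day 6 (edgeR adjusted p = 0.0131, 19% of all genes called lower). This fall leaned on the lower day 6 library: it fell by 0.75 with an edgeR adjusted p of 0.0508 without wild-type day 6 replicate 2, and the call was also lost without wild-type day 2 replicate 2 (log2 fold change -1.09, edgeR adjusted p = 0.1). The genotypes' changes from day 2 to day 6 differed by 1.43 ± 0.53 (SE) on the log2 scale, which missed the threshold (edgeR adjusted p = 0.0757, 9.81% of all genes called in this direction and 8.48% in the other). Without wild-type day 6 replicate 1, the difference was 2.50 and passed (edgeR adjusted p = 0.000539).

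Set against day 6 wild-type PGCLCs, Alpl was lower in TKO cells. With cytokines at day 6 it was 2.18-fold lower (log2 fold change -1.12 ± 0.37 SE, edgeR adjusted p = 0.0483, 7.53% of all genes called lower). This call sat at the threshold and was lost in 14 of the 18 fits without 1 library, at log2 fold changes of -1.20 to -1.06, and with the replicate number as a block (edgeR adjusted p = 0.0549). Day 2 TKO cells differed from the same wild-type PGCLCs by -1.16 on the log2 scale with cytokines (edgeR adjusted p = 0.0414, 9.49% called lower and 10.4% higher) and by -1.23 without (edgeR adjusted p = 0.0272, 11.1% called lower and 13% higher), losing the call in 13 and 4 of the 18 fits. These 3 comparisons share the same pair of wild-type libraries. Alpl was 10.6-fold higher in these libraries than in wild-type EpiLCs (log2 fold change 3.41 ± 0.41 SE, edgeR adjusted p = 1.74e-05, 22.4% called higher).

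**Figure D3:**
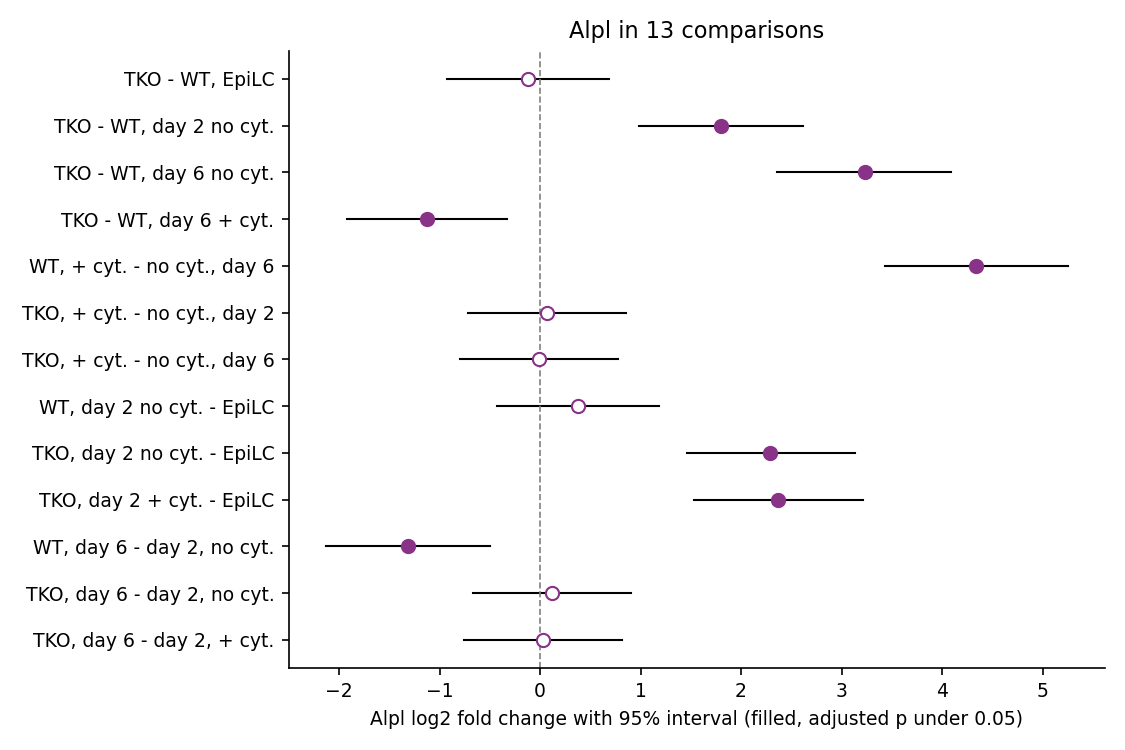
Log2 fold changes of Alpl (points) with 95% intervals (lines) from the edgeR model in 13 comparisons, each written as the first condition minus the second, with filled points at an adjusted p under 0.05. The largest is 4.34 for cytokines in day 6 wild-type cells, and the cytokine effects in TKO cells, 0.07 and -0.01, have intervals that span 0.

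Some other markers moved with Alpl between these samples, and others did not. The germ cell markers summed to 14490 and 17230 normalised counts in day 6 wild-type PGCLCs and to 5464 and 7399 in their TKO counterparts, and 5 of the 8 were called lower there (7.53% of all genes), among them Prdm1, a transcriptional repressor needed for germ cell fate (log2 fold change -3.51 ± 0.36 SE, edgeR adjusted p = 1.85e-05). The median log2 fold change of the 8 was -1.42, beside 0.05 for all genes tested. Prdm14, Itgb3 and Kit passed no test there (-0.02, -0.46 and -1.37, edgeR adjusted p = 0.981, 0.479 and 0.057). The 7 naive pluripotency markers, which Alpl staining accompanies in stem cell cultures, had a median of -0.02 there, and only Klf4 of them passed the test (1.45 ± 0.34 SE, edgeR adjusted p = 0.00769). In TKO cells without cytokines 7 of these 7 were higher than in wild-type cells at both day 2 and day 6 (18% and 28.5% of all genes), with medians of 5.01 and 6.16 beside 0.00 and 0.01 for all genes. The part of these cell types in the Alpl differences was not tested.

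Alpl is also made by bone and by endothelium. The osteoblast markers summed to 1115 to 2248 normalised counts in TKO cells without cytokines and to 77.0 to 205 with cytokines, nearly all of it the collagen gene Col1a1, while Alpl was called in neither direction between these conditions. Of the defining bone genes Bglap was at 2.75 or less on average in every condition and Ibsp at 0.567 or less. Runx2 and Sp7, transcription factors of the bone lineage, averaged 11.4 and 17.2 without cytokines and 3.45 and 5.94 with them in day 2 TKO cells, and 17.4 and 11.3 without and 7.11 and 9.32 with them at day 6, differences that passed no test (edgeR adjusted p from 0.272 to 0.858). The endothelial markers summed to 2800 and 2931 in day 6 wild-type PGCLCs and to 1095 and 1160 in day 6 TKO PGCLCs with cytokines. Pecam1, an adhesion molecule that stem cells and germ cells also make, accounted for most of that difference (log2 fold change -1.39 ± 0.35 SE, edgeR adjusted p = 0.0128), while Cdh5 and Tie1 were at averages of 20.1 and 19.2 in the wild-type PGCLCs and 7.07 and 5.08 in the TKO PGCLCs, differences that passed no test (edgeR adjusted p = 0.392 and 0.281). Kdr, a receptor of the same list, was at 34.0 and 32.4 (log2 fold change -0.12, edgeR adjusted p = 0.95). Tek, the remaining gene of the list, was at 115 and 61.1 (-0.91, edgeR adjusted p = 0.194). In day 6 wild-type cells, Pecam1 and Tek were higher with cytokines than without, as were 29.6% of all genes. Their log2 fold changes were 7.01 and 5.62 (edgeR adjusted p = 1.21e-08 and 2.16e-06), while Cdh5, Tie1 and Kdr passed no test. The part of bone and endothelium in the Alpl differences was not tested.

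Among the markers of tissues that could hold Alppl2, the trophoblast list summed to 552 and 648 in day 6 TKO PGCLCs with cytokines and to 513 and 636 in day 6 wild-type PGCLCs, where Alppl2 was at most 2.57. Of its genes Hand1 (log2 fold change 2.70 ± 0.61 SE, edgeR adjusted p = 0.00662) and Tfap2a (1.16 ± 0.34 SE, edgeR adjusted p = 0.0282) were higher in the TKO cells. Eomes and Gata3 were called in neither direction, averaging 243 and 107 in the TKO and 459 and 49.2 in the wild-type PGCLCs. Elf5, at 1.15 and 4.93, was not tested. The intestinal list summed to 73.5 and 97.4 in day 6 TKO PGCLCs with cytokines and to more, 190 and 279, in day 6 wild-type PGCLCs. Extra-embryonic endoderm markers summed to 438 and 535 in day 6 TKO PGCLCs with cytokines and to 75.1 and 116 in day 6 wild-type PGCLCs, with Sox17, Gata4 and Gata6 called higher, and to 305 and 428 in day 6 TKO cells without cytokines. Afp and Ttr of the same list had no counts in day 6 TKO PGCLCs with cytokines, and averaged 0 and 1.365 in day 6 wild-type PGCLCs. Ttr averaged 55.3 in day 6 TKO cells without cytokines. The part of these lists in the Alppl2 values was not tested.

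Per kilobase of exon, Alpl remained the more abundant transcript in every library. In day 6 TKO PGCLCs with cytokines Alppl2 made up 10.8 and 14.2% of the counts per kilobase of both genes, so that Alpl was 8.24 and 6.03 times more abundant. The share was 1.31 and 1.99% in day 6 TKO cells without cytokines, 0.889 and 0.9999% at day 2 with cytokines, and 0.157 and 0.166% at day 2 without. In day 6 wild-type PGCLCs it was 0.0124 and 0.0467%. As mean levels per kilobase, Alppl2 had 177 normalised counts in day 6 TKO PGCLCs with cytokines, where Alpl had 1224.

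The other alkaline phosphatase genes stayed at the floor of detection. Alpi, at chr1:87098002-87101606 next to Alppl2, had 0 to 3 counts in the 18 libraries, and Akp3, at chr1:87124973-87127912, had 0 to 4, so neither was tested. The coding sequence of Alppl2 is 81.6% identical to that of Alpi and 78.7% to that of Akp3, with identical runs of up to 50 and 40 bases, against 65.2% and runs of up to 14 bases for Alpl. Fragments that mapped to several places were not counted, and the counts given to the 3 neighbouring genes can therefore be too low. In day 6 TKO PGCLCs with cytokines, Alppl2 had 175 and 390 counts beside 0 and 1 for Alpi and 1 and 4 for Akp3.

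The genes that act with these enzymes moved in part. Of 8 genes of pyrophosphate and phosphate handling tested, 4 were higher and 0 lower in TKO than in wild-type cells at day 2 without cytokines (18% of all genes higher), 5 higher and 1 lower at day 6 without cytokines (28.5%; 6 and 1 without either wild-type library of that condition), and 3 higher and 0 lower at day 6 with cytokines (11.3%). Enpp1, which makes the pyrophosphate that Alpl breaks down, was higher in all 3, with averages of 22.3 against 2.92, 47.1 against 2.17 and 63.2 against 7.18 normalised counts. Its log2 fold change at day 6 with cytokines was 3.10 ± 0.67 (SE, edgeR adjusted p = 0.00506), in the comparison where Alpl was lower. Spp1, a secreted phosphoprotein of the mineral matrix, was higher in all 3 as well, at 3724 ± 145 against 1676 ± 90.8 (SD, n = 2) in the day 6 PGCLCs (log2 fold change 1.15 ± 0.39 SE, edgeR adjusted p = 0.0496).

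Extracellular nucleotides, another substrate, are handled by a set of 7 genes tested. Between TKO and wild-type cells that had no cytokines, 3 were higher and 1 lower at day 2 (18% and 14.8% of all genes), and 5 higher and 1 lower at day 6 (28.5% and 26.9%), with medians of 0.85 and 2.96. In the day 6 PGCLCs with cytokines 0 were higher and 2 lower (11.3% and 7.53% of all genes), the adenosine kinase gene Adk (log2 fold change -1.25 ± 0.22 SE, edgeR adjusted p = 0.00136) and the nucleotide phosphodiesterase gene Enpp3 (-2.02 ± 0.31 SE, edgeR adjusted p = 0.000524). Unlike Alpl, Enpp3 had its highest average in TKO EpiLCs, at 1817 ± 72.3 normalised counts (SD, n = 2). Among the wild-type conditions both genes were highest in day 6 PGCLCs. Enpp3 was there at 1687 ± 146 normalised counts (SD, n = 2), against 416.5 ± 14.3 in day 6 TKO PGCLCs with cytokines. Of 4 vitamin B6 genes, the phosphatase gene Pdxp was lower (-0.90 ± 0.17 SE, edgeR adjusted p = 0.00225) and the kinase gene Pdxk higher (0.91 ± 0.20 SE, edgeR adjusted p = 0.00495) in that comparison.

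Both enzymes need a GPI anchor to reach the cell surface. Of 28 genes that build and attach it, 2 were higher and 7 lower in TKO than in wild-type cells at day 2 without cytokines (18% and 14.8% of all genes), 4 higher and 9 lower at day 6 without (28.5% and 26.9%; 2 and 8 when wild-type replicate 2 was left out), and 2 higher and 4 lower at day 6 with cytokines (11.3% and 7.53%). Their medians were -0.21, -0.13 and -0.20, beside 0.00, 0.01 and 0.05 for all genes tested. Piga, which encodes the catalytic part of the enzyme of the first step, and Pigl, which encodes the enzyme of the next, were higher in TKO cells in all 3 and also in EpiLCs. Their levels in the day 6 PGCLCs with cytokines were 722 ± 169 against 407 ± 60.9 and 853 ± 31.1 against 536 ± 7.12 normalised counts (SD, n = 2), with log2 fold changes of 0.82 ± 0.23 (SE, edgeR adjusted p = 0.0208) and 0.67 ± 0.17 (SE, edgeR adjusted p = 0.0121). The 4 genes called lower there were Pgap1 (-1.70, edgeR adjusted p = 0.00634), Pigv (-0.98, 0.048), Pgap2 (-0.80, 0.027) and Pigt (-0.46, 0.0431). Pigp, Pigx, Pigs and Gpaa1 were lower in TKO cells at both days without cytokines.

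The patterns of both members over the 18 libraries were compared with those of other tested genes with a mean of 50 or more normalised counts, by Pearson's r of log2(normalised count + 1). Alppl2 itself lay below this cut, so it was not ranked in likeness to Alpl, and genes with means below the cut were not compared. Over these libraries Alpl and Alppl2 had an r of 0.564, which placed Alpl 950 of 11997 genes in likeness to Alppl2. The 5 genes most like Alppl2 were Ercc4, which encodes a DNA repair endonuclease subunit (r = 0.942), Pramef8 (0.933), Abcb5, a membrane transporter gene (0.916), Usp17ld, a deubiquitinase gene (0.913), and Guca1a, which encodes a guanylate cyclase activator of photoreceptors (0.911). Abcb5 was at 356 ± 45.1 normalised counts in day 6 TKO PGCLCs with cytokines, close to the level of Alppl2, and at 7.96 ± 2.40 in day 6 wild-type PGCLCs (SD, n = 2). Ercc4 and Pramef8 moved over a smaller range, from 308 and 237 in their lowest conditions to 1147 and 1018. Libraries of a condition share their treatment, so these r values describe 9 conditions rather than 18 independent points.

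The 5 genes most like Alpl were Lrrc31 (r = 0.966), Lima1, which encodes an actin-binding protein (0.964), Sh3gl2, an endophilin gene (0.960), Usp48, a deubiquitinase gene (0.958), and Zfp59, a zinc finger gene (0.956), of 11996 compared. All 5 were highest in day 6 wild-type PGCLCs. Lrrc31 differed in its range, with 450 normalised counts there and 51.8 to 109.5 in the TKO aggregates, whereas Zfp59 had 459 there and 318 to 378 in the TKO aggregates. Ranking by Spearman's rho kept 2 of the 5 genes for either member, and ranking over the 9 condition means kept 3.

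**Figure D4:**
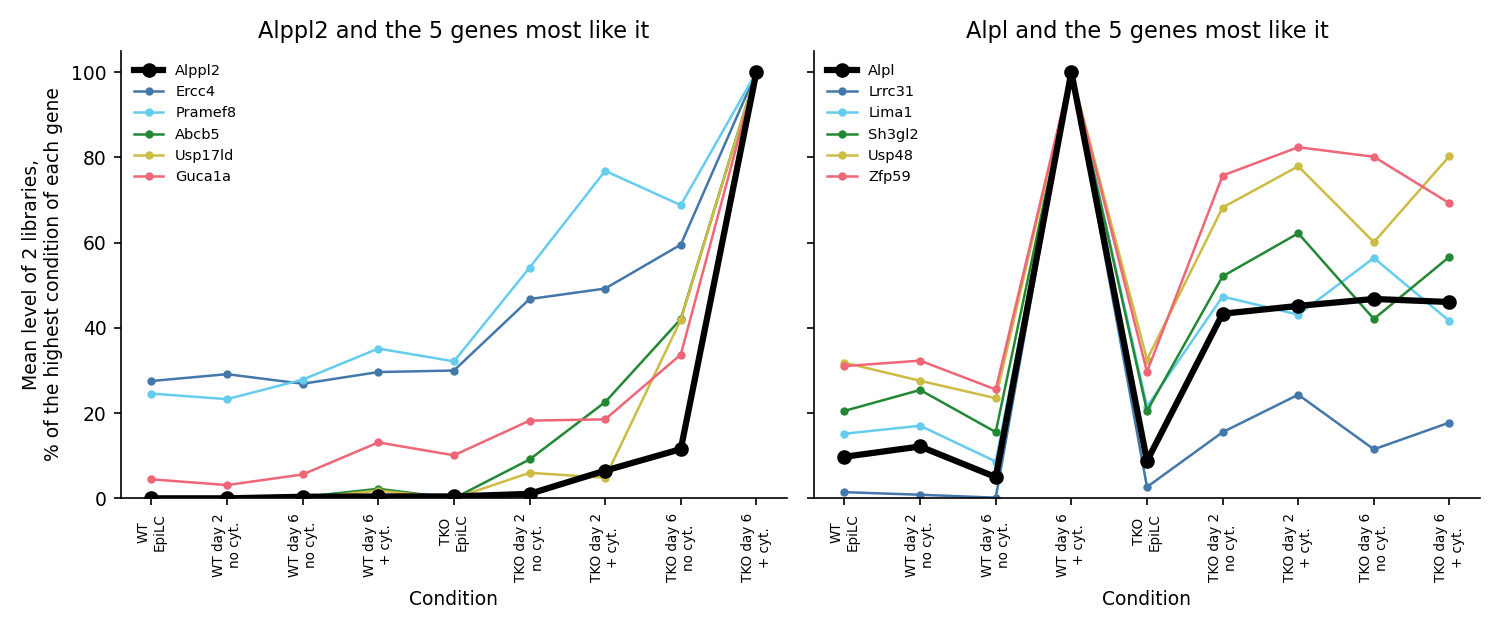
Mean levels of 2 libraries in the 9 conditions for Alppl2 (left) and Alpl (right), each with the 5 genes most like it, as a percentage of the highest condition of each gene. Alppl2 and its 5 genes peak in day 6 TKO PGCLCs with cytokines, and Alpl and its 5 genes peak in day 6 wild-type PGCLCs.

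Usp48 is also a neighbour of Alpl, at chr4:137594120-137658537 in RefSeq, with Rap1gap between them. Its levels were 1644 to 2278 normalised counts in the 4 conditions where Alpl was low, 4206 to 5621 in the TKO aggregates and 6999 in day 6 wild-type PGCLCs. Rap1gap was at 102.8 and 115.5 in wild-type EpiLCs and day 2 cells, 289.9 in wild-type cells at day 6 without cytokines, where Alpl was lowest, 261 in TKO EpiLCs, 336 in day 6 wild-type PGCLCs and 344 to 425 in the TKO aggregates. Ece1 on the other side of Alpl was at 231 to 683 over the 9 conditions and, like Alpl, lower in TKO than in wild-type PGCLCs of day 6 (log2 fold change -1.07, edgeR adjusted p = 0.00589). Around Alppl2, Dis3l2, an exoribonuclease gene, had 382 ± 44.0 normalised counts in TKO and 340 ± 11.0 in wild-type PGCLCs of day 6 (SD, n = 2; log2 fold change 0.17, edgeR adjusted p = 0.632). Beyond Akp3, the peptidase gene Ecel1 was higher there, at 100.5 against 10.9 (log2 fold change 3.17, edgeR adjusted p = 0.00272), and it was highest, at 677 ± 630.2, in wild-type cells at day 6 without cytokines, where Alppl2 had 6 counts and 0.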

How the data were processed

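RNA-seq counts were analysed for 18 libraries, 2 in each of 9 conditions, grouped by the deposited labels. The deposited values are raw counts: per the labels and the header lines of the table, the authors trimmed reads (Trim Galore 0.5.0, cutadapt 1.16), aligned them to mm10 (STAR 2.7.1a) and counted fragments on refGene exons (Subread 1.5.2), without using the strand and without fragments that mapped to several places or genes. The table holds 25239 genes, and 33 rows that hold program text and no counts were left out. The 18 libraries include no ESCs and no day 2 wild-type aggregates grown with cytokines.

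Genes were filtered with filterByExpr, scaled by TMM and fitted with edgeR 4.0.16 in R 4.3.3, with a mean for each of the 9 conditions, and tested with edgeR's quasi-likelihood test, adjusted by Benjamini and Hochberg over 16582 genes, with calls at an adjusted p under 0.05. Standard errors (log2 fold change over the square root of F) and the 95% intervals built on them are approximate. Levels are counts divided by DESeq2 1.42.0 size factors, as mean ± SD. Alppl2 ratios compare summed counts with exact binomial intervals, and 0 counts were taken as up to 3 over a group. Depth was 11286050 to 41257861 counts per library. The labels do not say whether the 2 libraries of a condition came from separate cultures, so p-values measure the spread between these libraries. Exon lengths came from GENCODE on GRCm38, and promoters from RefSeq.

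The members, gene lists and comparisons were chosen with earlier results of these data known. Named genes are the members, Alpi, Akp3, Tet1, Tet2, Tet3, the genes of the lists, and the 5 genes with the highest r to each member, and chromosomal neighbours and genes next in rank were added after their values were seen. Lists were counted, not tested as sets. Lists for formative pluripotency and neural genes were also counted: between TKO and wild-type PGCLCs of day 6, 1 of 5 and 1 of 7 genes were higher and 0 and 1 lower, where 11.3% of all genes were higher and 7.53% lower. Scripts were tested on simulated data. Alternatives were RLE factors, library size alone, no filter, DESeq2's Wald test, the replicate number as a block, only the groups compared, and each library left out, and, added after the data were seen, list counts without each day 6 wild-type library without cytokines.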

Additional observations from a re-analysis of the deposited data

Results flagged for a closer look

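The difference of Alpl with and without cytokines at day 6 was not the same in the genotypes, at -4.35 ± 0.55 (SE) on the log2 scale for TKO minus wild-type (edgeR's quasi-likelihood test, adjusted p = 1.77e-05), with 507 and 161 normalised counts without cytokines and 6763 and 6643 with them in wild-type cells, and 3419 and 2851 without and 2921 and 3254 with them in TKO cells. A legend of the study describes sorting of the wild-type cells with cytokines only, so that genotype and sorting cannot be told apart in this difference. The change of Alpl from EpiLCs to day 2 without cytokines also differed between the genotypes, by 1.92 ± 0.54 (SE) for TKO minus wild-type (edgeR adjusted p = 0.0296), a call that was lost without any one of 7 of the 8 libraries in it (1.50 to 2.14).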

How the results depend on the processing

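Of 456 values of Alpl under alternatives, over 19 comparisons and differences between comparisons, 410 kept their side of the threshold, and no called value changed sign. Values that were not called could change sign, as for TKO against wild-type EpiLCs (-0.12, and 0.17 by library size alone). The replicate numbers did not pair the libraries (correlations of deviations between conditions from -0.156 to 0.182). With the number as a block, Alpl in day 6 TKO and wild-type PGCLCs differed by -1.12 (edgeR adjusted p = 0.0549), and the block changed no other call of either gene. The cytokine difference of Alppl2 in day 2 TKO cells passed the threshold without a filter (2.62), with DESeq2 (2.63) and with only the groups compared (2.59). Scaled by library size alone, Alppl2 in day 6 TKO cells with against without cytokines was 2.63 in place of 3.13, Alpl in day 2 wild-type cells against EpiLCs became a call at 0.94, and Alpl in day 2 TKO cells without cytokines against day 6 wild-type PGCLCs lost its call at -0.80. With only the groups compared, the fall of Alpl in wild-type cells from day 2 to day 6 was -1.34 and not called (edgeR adjusted p = 0.15), and without a filter the genotype difference in that change was 1.43 and called (edgeR adjusted p = 0.0104). In the same fits Alppl2 did not pass the filter in any comparison without a TKO group of day 2 with cytokines or of day 6, and those gave no value. Library size alone also moved the split of all genes, for example from 425 higher and 506 lower to 109 and 3138 for cytokines in day 6 TKO cells, from 340 and 409 to 100 and 2672 at day 2, and from 1255 and 528 to 2508 and 185 for TKO against wild-type EpiLCs. With only the groups compared, 726 in place of 70 genes were higher and 422 in place of 9 lower from day 2 to day 6 in TKO cells without cytokines. The cause of these changes was not tested.

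Without 1 library at a time, Alpl calls were lost in the comparisons with day 6 wild-type PGCLCs: for TKO PGCLCs of day 6 (-1.20 to -1.06; adjusted p = 0.0507 to 0.206 in 14 fits), for day 2 TKO cells with cytokines (-1.33 to -1.0; 13 fits) and without (-1.39 to -1.10; 4 fits, each library compared). The fall in wild-type cells from day 2 to day 6 was -2.39 to -0.75, the genotype difference from EpiLCs to day 2 was 1.50 to 2.48 and that from day 2 to day 6 was 0.87 to 2.50, all edgeR values on the log2 scale. For Alppl2 the edgeR adjusted p was 0.0214 to 0.156 for day 2 TKO against wild-type cells, 0.00225 to 0.0652 for day 2 TKO cells with cytokines against TKO EpiLCs, and 0.0407 to 1 for day 6 against day 2 wild-type cells. Its cytokine difference in day 2 TKO cells was 2.34 to 2.84 and was called without either day 6 wild-type library that had no cytokines or either TKO EpiLC library. Untested log2 fold changes of Alppl2 were 3.94 to 8.43 for day 6 TKO against wild-type cells without cytokines (8.43 without wild-type replicate 1) and -1.21 to 3.87 for cytokines in wild-type cells (3.87 without the same library). Against day 6 wild-type PGCLCs they were 7.10 to 8.82 for day 6 TKO PGCLCs, 3.16 to 4.89 and 0.55 to 2.27 for day 2 TKO cells with and without cytokines, and 2.79 to 4.53 for those PGCLCs against EpiLCs, with 8.82, 4.89, 2.27 and 2.79 without wild-type replicate 2. Counts of 0 to 6 in wild-type libraries limit every Alppl2 ratio that holds a wild-type condition. Within TKO cells, ratios to EpiLCs rest on 0 and 3 counts, and those to day 2 cells without cytokines on 4 and 3.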
